A study of Mus musculus with 9 samples.

Results

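The genes described here encode the SR and hnRNP splicing factors of the mouse, with 6 partners that work beside them. SR proteins and hnRNPs are the main families of RNA-binding proteins that choose which exons a transcript keeps. They were picked by symbol: every row of the count table whose symbol began with Srsf and a digit or with Hnrnp, with 1 gene left out, together with Alyref, Arglu1, Tra2a, Tra2b, Clk1 and Clk4. This gave 38 rows of 23317, of which 11 were Srsf rows, 21 were Hnrnp rows and 6 were the partners. After the filter on low counts 36 of them were tested among 14227 genes. The choice was made with earlier results of these comparisons known, so the counts of changed members and their p-values describe these genes and are not independent support for any pattern.

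The libraries hold polyadenylated RNA of 1500 sorted cells each, labelled as haematopoietic stem cells (HSCs) of the bone marrow of wild-type mice, which renew themselves and give rise to the blood lineages. Young HSC, old HSC and old HSC treated with ABC294640 had 3 libraries each. The protocol gives ages of 2 to 4 months and of 20 to 24 months, read here as the young and the old groups. ABC294640 is named by the submitters as an inhibitor of sphingosine kinase 2, a lipid kinase that makes sphingosine 1-phosphate, and the sources used here do not give its dose, route, duration or vehicle, or the markers used for sorting. No label ties the 3 libraries of a group to separate animals, so the p-values measure the spread between these libraries, which may be technical.

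SR proteins carry RNA recognition motifs and a tail of arginine and serine repeats. They sit on exonic enhancers, recruit the spliceosome to nearby splice sites, and are switched by kinases such as CLK1 and CLK4 that phosphorylate the tail. hnRNPs bind nascent transcripts through RNA recognition or KH domains and often act as silencers of exons, though many also act on export, stability and translation of mRNA. Genes of both families are known for controlling themselves through poison exons or retained introns, which send the transcript to nonsense-mediated decay. A value per gene adds up all its transcripts and does not show which isoform was made.

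Library totals ran from 16663559 to 23254225 counts, and 18227 to 20285 genes were detected per library. All 11 genes of the HSC marker list were detected in every library, with a summed level of 580.2 to 591.4 CPM (counts relative to a library size scaled by TMM) in young HSC, 479.4 to 485.3 in old HSC and 493.3 to 495.4 in treated old HSC. Of these markers, 1 was higher and 6 were lower in old than in young HSC. Within the HSC list Cd34 held 2388 to 4520 counts per library, Kit 1875 to 2772 and Meis1 1238 to 2136. Mecom held 116 to 168, Procr 38 to 89 and Fgd5 5 to 31, so the sum mainly follows the first named genes. Procr stood at 3.89 CPM ± 0.203 in young, 2.54 ± 0.35 in old and 3.19 ± 0.299 in treated old HSC (SD, n = 3). Mpo, a granule gene of myeloid progenitors, stood at 11260 ± 475 in young, 16797 ± 194 in old and 16291 ± 219 in treated old HSC. The 10 granulocyte genes together held 3.35% of the counts in young, 4.81% in old and 4.61% in treated old HSC, with no library at 0 for any of them, and 9 of them were higher in old HSC. The 8 monocyte genes summed to 435.6 to 446.6 CPM in young HSC and 212.7 to 215.2 in old HSC, and the 8 erythroid genes measured to 1733 to 1772 and 977.6 to 984.1. The megakaryocyte and platelet genes summed to 451 to 492.5 CPM in young and 225.2 to 252.9 in old HSC, the B and plasma cell genes to 335.2 to 378.3 and 671.3 to 756.3, the T and NK cell genes to 1323 to 1479 and 1731 to 1888, and the stroma and endothelium genes to 40.13 to 46.97 and 30.89 to 37.39. Within the T and NK cell list Nkg7 held 26848 to 36805 counts per library, Cd3d 63 to 128 and Cd3e 0 to 1. Within the B and plasma cell list Igkc held 3103 to 10037, Cd79b 1003 to 1665 and Cd79a 16 to 37. The difference of old minus young HSC was positive for 1 of 4 T and NK cell genes tested. It was positive for 3 of 6 B and plasma cell genes tested. Within the stroma and endothelium list Pecam1 held 412 to 783 and Cdh5 0 to 5. The Y-linked gene Ddx3y stood at 0.936 CPM ± 0.258 in young, 38.9 ± 5.08 in old and 38.3 ± 5.46 in treated old HSC, so age and the sex of the mice cannot be told apart in comparisons with young HSC. The part of these shifts in the marker sums in the results below was not tested, and fewer cells of a type cannot be told apart from less RNA per cell.

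In old HSC, 12 of the 36 members were higher than in young HSC, 6 were lower and 18 did not pass the test, at a background of 39.4% of all genes called. The calls are those of edgeR's quasi-likelihood test at a Benjamini-Hochberg adjusted p under 0.05 over 14227 genes, and the same tool gave every adjusted p below. The background was 19.6% called higher and 19.8% called lower. The changes were small: the log2 difference, old minus young, had a median of 0.07 over the members, against -0.03 over all genes, and the absolute difference had a median of 0.17. Libraries of the 2 ages did not overlap for 16 members on the higher and 6 on the lower side, at a background of 48.4%. Among well-expressed genes, with a mean of at least 100 CPM, 59.3% were called, and 13 of 24 members of that level were. Of those 1761 genes 770 were higher and 274 lower, with a median log2 difference of 0.092. Of the 24 members 9 were higher and 4 lower, with a median of 0.105. The family as a whole held 0.919% to 0.994% of the counts of a young library, 0.936% to 0.991% of an old one and 0.908% to 0.943% of a treated one.

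**Figure D1:**
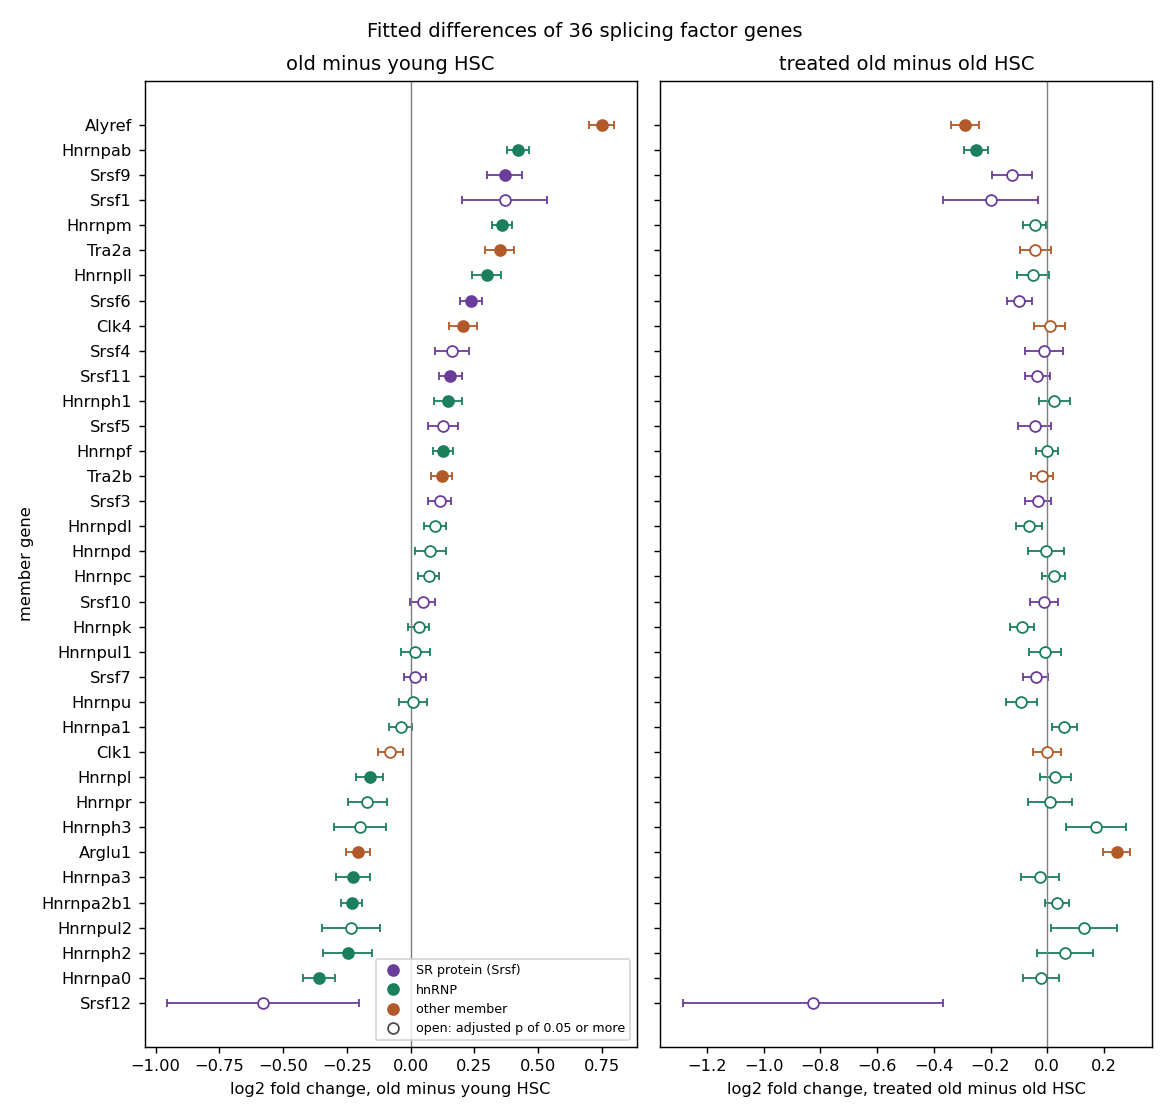
Log2 fold changes of the 36 tested members with their standard errors, old minus young HSC on the left and treated old minus old HSC on the right. Filled points have an adjusted p under 0.05, 18 on the left and 3 on the right; Alyref, Hnrnpab and Arglu1 are filled on both sides and point opposite ways.

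Alyref, the mRNA export adaptor that the TREX complex loads onto spliced transcripts, had the widest age difference of the called members. Its level was 106, 112 and 106 CPM in the 3 young libraries, 178, 193 and 173 in the old and 151, 147 and 148 in the treated old libraries. All 3 old libraries lay above all 3 treated ones, and all treated ones above the young. The means were 108 ± 3.68, 181 ± 10.4 and 148 ± 1.96 CPM (SD, n = 3), a 1.68-fold rise with age (log2 difference 0.75 ± 0.05 SE, adjusted p = 1.85e-10). Treated old HSC were lower than old HSC by a log2 difference of -0.29 ± 0.05 (adjusted p = 0.00311) and higher than young HSC by 0.46 ± 0.05 (adjusted p = 3.77e-07). The gene (ENSMUSG00000025134) lies on chromosome 11 at 120592121 to 120598365 in GRCm38, on the minus strand.

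Hnrnpab, an A/B-type hnRNP, followed the same order of groups. Its libraries held 350.1, 370.2 and 346 CPM in young, 488, 479.7 and 461 in old and 406, 393 and 401 in treated old HSC. None of the 3 sets overlapped. The log2 difference was 0.42 ± 0.04 for old minus young (adjusted p = 1.22e-07), -0.25 ± 0.04 for treated old minus old (adjusted p = 0.00311) and 0.17 ± 0.04 for treated old minus young (adjusted p = 0.00387). The gene (ENSMUSG00000020358, chromosome 11, 51600100 to 51606847) shares 28.1% of its 31-base words with transcripts of other genes, and 29.1% of its exonic bases overlap another gene. That gene is the oppositely oriented Phykpl, at 42.2 ± 3.79, 49.3 ± 2.13 and 52.3 ± 4.83 CPM in young, old and treated old HSC. Reads of overlapping genes cannot be told apart here, since nothing states that counting used strand.

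Arglu1, a nuclear protein rich in arginine and glutamate that acts in transcription and splicing, went the other way. It stood at 302, 296 and 312 CPM in young, 258, 256 and 275 in old and 307, 329 and 299 in treated old HSC. The old libraries lay below both other groups, and young and treated libraries overlapped. The log2 difference was -0.21 ± 0.05 for old minus young (adjusted p = 0.00164), 0.24 ± 0.05 for treated old minus old (adjusted p = 0.00904) and 0.04 ± 0.05 for treated old minus young (adjusted p = 0.563). The age difference turned to 0.04 once trends with GC content and length were removed, and the treatment call was lost without old replicate 1, old replicate 2, treated replicate 1 or treated replicate 2 (adjusted p = 0.0551 to 0.127).

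**Figure D2:**
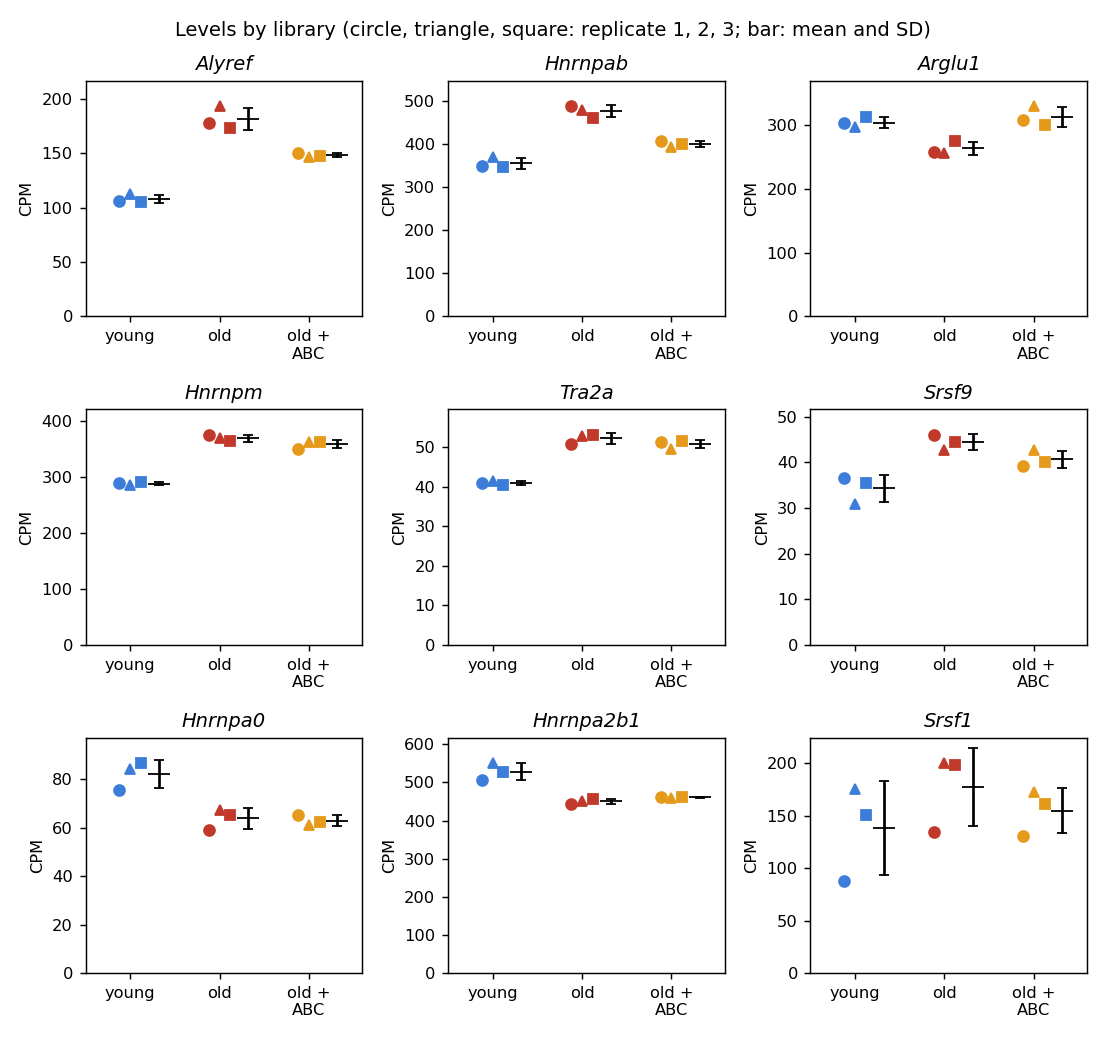
Level of 9 members in each library in CPM, on linear axes from 0, with the mean and SD (n = 3) beside the points. Alyref and Hnrnpab stand highest in old HSC and between the ages in treated old HSC, Arglu1 stands lowest in old HSC, and replicate 1 is the lowest Srsf1 library of each group.

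Promoters of 4 members are shown because they belong to the 2 members that were higher with age and lower with treatment, and to 2 members that were lower with age. Each is the 250 bases before the first start listed for the gene in RefSeq's GRCm38.p6 table, 5′ to 3′ on the gene's strand. Hnrnpa2b1 has 2 starts in that table and the others have 1 each. All 4 genes lie on the minus strand, Alyref at chr11:120598366-120598615, Hnrnpab at chr11:51606882-51607131, Hnrnpa2b1 at chr6:51469895-51470144 and Hnrnpa0 at chr13:58128557-58128806. Capitals mark CCAAT, the GC box GGGCGG and the ETS motif CCGGAAG, on either strand.
Alyref: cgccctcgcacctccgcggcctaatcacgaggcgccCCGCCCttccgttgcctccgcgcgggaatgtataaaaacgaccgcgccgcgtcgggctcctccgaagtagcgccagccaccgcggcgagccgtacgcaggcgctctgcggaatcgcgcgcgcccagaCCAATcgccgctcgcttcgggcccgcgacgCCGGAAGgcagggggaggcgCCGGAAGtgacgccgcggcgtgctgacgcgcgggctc
Hnrnpab: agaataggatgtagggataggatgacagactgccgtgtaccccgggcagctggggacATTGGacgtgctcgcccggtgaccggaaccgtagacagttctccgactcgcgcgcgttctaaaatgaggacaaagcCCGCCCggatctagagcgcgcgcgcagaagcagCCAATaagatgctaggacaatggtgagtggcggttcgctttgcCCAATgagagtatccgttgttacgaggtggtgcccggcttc
Hnrnpa2b1: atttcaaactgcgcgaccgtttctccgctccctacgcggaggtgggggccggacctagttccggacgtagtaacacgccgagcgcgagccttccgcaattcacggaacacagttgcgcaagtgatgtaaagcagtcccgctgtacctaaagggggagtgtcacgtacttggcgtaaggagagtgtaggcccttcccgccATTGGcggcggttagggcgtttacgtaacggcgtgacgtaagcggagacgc
Hnrnpa0: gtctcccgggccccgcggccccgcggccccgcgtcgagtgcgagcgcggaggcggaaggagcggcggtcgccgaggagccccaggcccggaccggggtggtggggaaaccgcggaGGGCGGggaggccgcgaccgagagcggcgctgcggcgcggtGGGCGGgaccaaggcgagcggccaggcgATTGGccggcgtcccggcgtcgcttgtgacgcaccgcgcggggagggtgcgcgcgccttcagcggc
The Alyref stretch holds 1 CCAAT, 1 GC box and 2 ETS motifs, and the Hnrnpab stretch 3 CCAAT and 1 GC box. For the genes that were lower, the Hnrnpa2b1 stretch holds 1 CCAAT and the Hnrnpa0 stretch 1 CCAAT and 2 GC boxes, so CCAAT and the GC box occur on both sides.

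Over the members, 32 of 36 had a promoter in that table. Only the first start listed for a gene was searched, for members and for the genes compared, so other starts may differ. The GC box was found in 26 of them, 81.2%, against 56% of 10923 promoters of tested coding genes and 32.9% of all 27025 promoters of the same length. CCAAT was found in 16, 50%, against 36.8% and 34.5%, and CCGGAAG in 7, 21.9%, against 13% and 7.05%. TATAAA was found in 3, the E-box CACGTG in 2 and TGACGTCA in 2, shares of 9.38%, 6.25% and 6.25% against 7.31%, 7.99% and 2.56% of the tested coding genes. The last of the 7 motifs searched, a CG-rich palindrome, was found in no member promoter and in 0.87% of the tested coding ones. Both strands were searched, and none of these motifs contains another. The member promoters had a median GC content of 64% and 23 CpG, against 59.2% and 15 for tested coding genes. A match of letters is a description and shows neither binding nor use.

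Among the SR proteins, 3 of 10 tested were higher in old HSC and none was lower, against 19.6% and 19.8% of all genes. Of the 10 differences 9 were positive, with a median log2 difference of 0.14. Over all genes 6522 of 14227 differences were positive, and 1186 of 1761 at a mean of at least 100 CPM. Srsf9, a small member of the family that acts in splice site choice, stood at 36.5, 30.9 and 35.4 CPM in young, 46.1, 42.6 and 44.5 in old and 39.2, 42.8 and 40.1 in treated old HSC, and old and young libraries did not overlap (log2 difference 0.37 ± 0.07, adjusted p = 0.000282). Srsf6, which binds exonic enhancers, held 300.0, 316 and 317 CPM in young, 361, 379 and 359 in old and 353, 327 and 348 in treated old HSC (0.24 ± 0.04, adjusted p = 0.000306). Srsf11, whose RS-rich protein joins SR proteins at splice sites, held 217, 229.6 and 217 CPM in young, 242, 255 and 242 in old and 233, 240.4 and 248 in treated old HSC (0.16 ± 0.04, adjusted p = 0.00957). For each of these 3 genes every old library exceeded every young one. With treatment their log2 differences against old HSC were -0.13 ± 0.07, -0.10 ± 0.04 and -0.03 ± 0.04, none past the test. With library totals in place of TMM scaling 2 SR proteins were higher and none lower, and Srsf11 lost its call. Of the 10 differences 7 were then positive and the median was 0.06. All genes had 13.1% higher and 27.6% lower in that setting, with a median of -0.116. With GC and length trends removed 9 SR proteins were higher and none lower, with a median of 0.29. All genes then had 33.2% higher and 15.7% lower, with a median of 0.0696.

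The other SR members did not pass the test with age. Srsf3, the shortest SR protein and an export adaptor, had a log2 difference of 0.11 ± 0.05 (adjusted p = 0.054), Srsf4 of 0.16 ± 0.07 (adjusted p = 0.0583) and Srsf5 of 0.13 ± 0.06 (adjusted p = 0.087). Srsf10, a repressor of splicing when it is dephosphorylated, had 0.05 ± 0.05. Srsf7, the member with the highest level per length, stood at 771, 819 and 813 CPM in young, 797, 837 and 797 in old and 794, 750.5 and 819 in treated old HSC, with 0.02 ± 0.04 between the ages (adjusted p = 0.791). The libraries of its 3 groups overlapped.

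Srsf1, the founding SR protein, was set apart by its spread, and is described although it was chosen after its values were seen. Its libraries held 88.4, 175 and 150.4 CPM in young, 135, 200.1 and 198 in old and 131, 173 and 162 in treated old HSC. Replicate 1 was the lowest in each of the 3 groups. The largest ratio within a group was 1.99, the fourth among 1761 genes with a mean of at least 100 CPM. The log2 difference with age was 0.37 ± 0.17 (adjusted p = 0.086), and it was 0.14 without young replicate 1, 0.59 without young replicate 2 (adjusted p = 0.00943) and 0.54 without old replicate 1 (adjusted p = 0.0202). Only 1.22% of its 31-base words occur in other genes' transcripts.

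The enhancer-binding SR-like pair Tra2a and Tra2b was higher in old HSC. Tra2a held 41.1, 41.4 and 40.5 CPM in young, 50.7, 52.8 and 53.1 in old and 51.2, 49.5 and 51.4 in treated old HSC (0.35 ± 0.06 for age, adjusted p = 4.39e-05). Tra2b held 537, 575 and 555 CPM in young, 601, 611 and 601 in old and 597, 591 and 603 in treated old HSC (0.12 ± 0.04, adjusted p = 0.0205). For both, all old libraries lay above all young ones and old and treated libraries overlapped. The Tra2b call with age was lost with library totals alone, where its log2 difference was 0.04, and with the stricter filter.

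The 2 CLK kinases differed in what the test found. Clk4 was higher in old HSC at 108, 119.5 and 116 CPM in young, 130.3, 137 and 129 in old and 129.8, 126 and 142 in treated old HSC (0.21 ± 0.05, adjusted p = 0.00527), with no overlap between the ages. Clk1 held 286, 317 and 325 CPM in young, 283, 301 and 294 in old and 289, 285 and 303 in treated old HSC, and its ages overlapped (-0.08 ± 0.05, adjusted p = 0.218). Whether the 2 kinases differ from each other was not tested. The Clk4 call was lost with library totals alone, and the Clk1 difference turned to 0.25 once trends with GC content and length were removed.

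With TMM scaling 5 of 20 hnRNPs tested were higher in old HSC, 5 were lower and 10 did not pass the test. Their median log2 difference was 0.01, and 19.6% of all genes were higher and 19.8% lower. With library totals alone 3 hnRNPs were higher and 9 lower with a median of -0.07. All genes then had 13.1% higher and 27.6% lower with a median of -0.116. With GC and length trends removed 11 hnRNPs were higher and 3 lower with a median of 0.11. All genes then had 33.2% higher and 15.7% lower with a median of 0.0696. Besides Hnrnpab, the hnRNPs that rose with TMM scaling were Hnrnpm, Hnrnpll, Hnrnph1 and Hnrnpf. Hnrnpm, which binds GU-rich RNA, held 289, 285 and 289.9 CPM in young, 375, 369 and 363 in old and 350.1, 362 and 362 in treated old HSC (0.36 ± 0.04, adjusted p = 6.07e-07). Every old library was above every treated one, and every treated one above every young one. Even so, the treated against old difference of -0.04 ± 0.04 did not pass the test (adjusted p = 0.855). Of the exonic bases of Hnrnpm 14.7% overlap March2, a coding gene on the same strand. Of its words 14% occur in other genes' transcripts. Hnrnpll, known in lymphocytes for controlling the exons of the phosphatase CD45, held 56.4, 57.9 and 63.8 CPM in young, 71.9, 73.3 and 73.8 in old and 67.5, 70.5 and 73.6 in treated old HSC (0.30 ± 0.06, adjusted p = 0.00031). Hnrnph1 and Hnrnpf, which bind runs of guanine, rose by smaller log2 differences of 0.15 ± 0.05 (adjusted p = 0.0352) and 0.13 ± 0.04 (adjusted p = 0.0131), both lost with library totals alone and with the stricter filter. The Hnrnph1 call was also lost without young replicate 1, old replicate 1 or old replicate 2. Of the Hnrnpf words 66.2% occur in other genes' transcripts, so its counts are uncertain.

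Those that fell with age were Hnrnpa0, Hnrnpa2b1, Hnrnpa3, Hnrnpl and Hnrnph2. Hnrnpa0, which binds AU-rich mRNA, held 75.5, 84.1 and 86.6 CPM in young, 59.1, 67.2 and 65.4 in old and 65.3, 61.2 and 62.5 in treated old HSC (-0.36 ± 0.06, adjusted p = 0.000107). Hnrnpa2b1, one of the core proteins of hnRNP particles, held 507, 550.1 and 527 CPM in young, 443, 451 and 456 in old and 462, 459.7 and 461 in treated old HSC (-0.23 ± 0.04, adjusted p = 0.000174). For both, the young libraries lay above all the others. Hnrnpa3, a close relative, held 165, 190.5 and 184 CPM in young, 146, 167 and 147 in old and 155, 136 and 162 in treated old HSC, and the ages overlapped by 1 old library (-0.23 ± 0.07, adjusted p = 0.0106). Its call was lost without young replicate 2, young replicate 3, old replicate 1 or old replicate 3, and it shares 28.1% of its words with other genes. Hnrnpl, which binds CA repeats, fell by 0.16 ± 0.05 on the log2 scale (adjusted p = 0.0222), and Hnrnph2, on the X chromosome, fell by 0.25 ± 0.10 (adjusted p = 0.0474). The Hnrnph2 call was lost under 13 of 19 other settings and the Hnrnpl call under 8 of 20.

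The 10 hnRNPs that did not pass the test with age had log2 differences of -0.23 (Hnrnpul2) to 0.10 (Hnrnpdl). Hnrnpk, a KH-domain protein that binds C-rich RNA, held 1225, 1326 and 1339 CPM in young, 1299.9, 1366.5 and 1311 in old and 1256, 1213 and 1268 in treated old HSC, with 0.03 ± 0.04 between the ages. Hnrnpa1, which silences exons and is the best-known hnRNP, held 614, 658 and 662 CPM in young, 619.9, 611 and 652 in old and 652, 633 and 676 in treated old HSC (-0.04 ± 0.04). The groups of both genes overlapped between the ages, with 21.1% of the Hnrnpk words and 29.9% of the Hnrnpa1 words found in other genes' transcripts. Hnrnpr held 32.5, 35.4 and 36.5 CPM in young, 28.3, 29.9 and 34.6 in old and 31.5, 30.9 and 31 in treated old HSC, and its difference of -0.17 ± 0.08 turned to 0.38 once GC and length trends were removed. Hnrnpul2 held 8.63, 9.02 and 8.24 CPM in young, 7.12, 6.89 and 8.08 in old and 7.78, 8.25 and 8.07 in treated old HSC (-0.23 ± 0.11, adjusted p = 0.11).

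With ABC294640, 1 of the 36 members was higher than in untreated old HSC, 2 were lower and 33 did not pass the test, at a background of 1.19% of all genes called (0.766% higher, 0.429% lower). The 3 were Arglu1, Alyref and Hnrnpab. The SR proteins had no call in this comparison in the main edgeR fit or with DESeq2. In the main fit 1 of the 10 had an unadjusted p under 0.05. With no filter on low counts edgeR called 1, Srsf1, at -0.20 (adjusted p = 0.0161). In the main fit all 10 of their differences were negative, with a median log2 difference of -0.04 against 0.00105 over all genes. Of all genes 7164 of 14227 differences were positive, and 979 of 1761 at a mean of at least 100 CPM. Srsf4 stood at -0.01 ± 0.07 and Srsf10 at -0.01 ± 0.05. Without any 1 old or treated library, or with GC and length trends removed, 1 SR difference was positive. The old libraries are shared with the age comparison, so these signs are not independent of it. Old and treated libraries did not overlap for 3 members on the higher and 5 on the lower side, at a background of 15.5%. Of all genes 8.83% had an unadjusted p under 0.05. Among the 33 members without a call the median absolute log2 difference was 0.03, and the largest was 0.83 ± 0.46, of Srsf12. A difference that misses the threshold does not show that treated and untreated cells had the same level. At a mean of at least 100 CPM, 5.57% of genes were called.

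Alyref, Hnrnpab and Arglu1 thus each passed the test in both comparisons with opposite sign. So did 126 genes in all, 0.886% of those tested. The comparisons share the 3 old libraries, so a deviation of those libraries would move both in opposite directions, and the sign reversal is not independent of them. Against young HSC, which shares no library with the treated group, Arglu1 did not pass the test and the other 2 genes were higher in treated old HSC.

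Treated old HSC against young HSC gave 12 members higher, 4 lower and 20 without a call, at a background of 37.6%. Higher were Alyref, Hnrnpm, Tra2a, Hnrnpll, Srsf9, Hnrnpab, Clk4, Srsf6, Hnrnph1, Hnrnpf, Srsf11 and Tra2b. Lower were Hnrnpa0, Hnrnpa2b1, Hnrnpa3 and Srsf12. Of these 16 calls 5 held under every other setting apart from the fold threshold of 1.2 (Alyref, Hnrnpa0, Hnrnpll, Hnrnpm and Tra2a), while leaving out 1 library could end those of Hnrnpa3, Hnrnph1, Srsf6, Srsf11, Srsf12 and Tra2b. Srsf12, the member of the lowest level, held 1.08, 1.13 and 0.69 CPM in young, 0.765, 0.67 and 0.49 in old and 0.522, 0.37 and 0.205 in treated old HSC. The treated libraries were below all the young ones (log2 difference -1.41 ± 0.42, adjusted p = 0.0122), and the call was lost with DESeq2 and without treated replicate 3. The log2 difference was 0.31 ± 0.04 for Hnrnpm (adjusted p = 3.87e-06), 0.31 ± 0.06 for Tra2a (adjusted p = 0.000202), and -0.38 ± 0.06 for Hnrnpa0 (adjusted p = 6.56e-05).

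Levels can be compared between genes once divided by exonic length. On that scale, in CPM per kilobase of summed exons and averaged over all 9 libraries, Srsf7 stood at 225, Hnrnpa1 at 204 and Hnrnpk at 199. The 3 lowest were Srsf12 at 0.209, Hnrnpul2 at 1.13 and Hnrnpr at 1.45. Between them the levels ran from Hnrnpf at 175 and Hnrnpab at 148 through Tra2b at 63.4 and Alyref at 38 to Tra2a at 6.91. Over the 9 libraries the range of Srsf7, 211.4 to 236, overlapped that of Hnrnpa1, 194 to 214. Within every library Srsf7 still stood above Hnrnpa1. The range of Hnrnpa1 overlapped that of Hnrnpk, at 188 to 211.3, while the range of Srsf7 stayed above that of Hnrnpk. The length is of all annotated exons, so genes with long alternative exons are set too low.

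**Figure D3:**
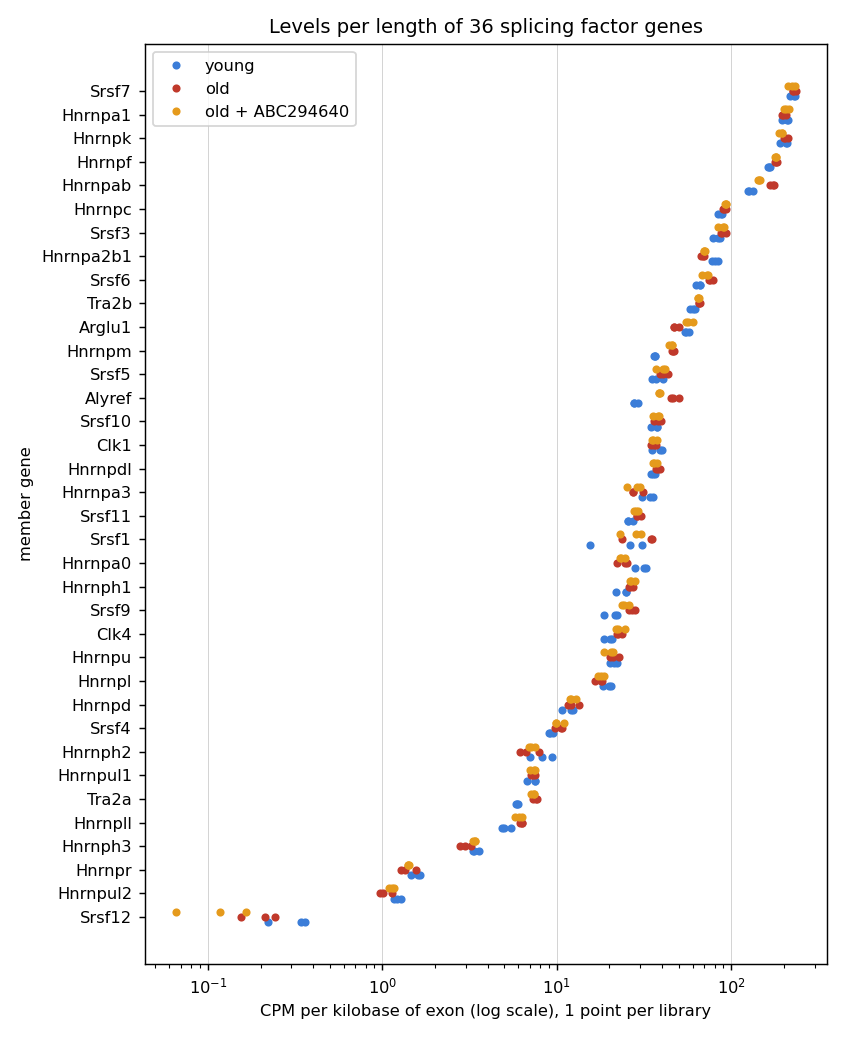
Level per kilobase of exon in each library for the 36 tested members, on a log axis, ordered by mean. The order runs from Srsf7 at 225 to Srsf12 at 0.209 CPM per kilobase, and for most genes the 9 libraries lie close together compared with the distance between genes.

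The 2 rows that were not tested are near copies. Srsf3-ps held 7.64, 21.1 and 11.1 estimated counts in young, 3.6, 4.71 and 3.65 in old and 3.75, 3.82 and 3.72 in treated old HSC, and 66% of its words occur in other transcripts. Hnrnpa1l2-ps2, a processed pseudogene, held 0 to 2.01 counts. Such copies share reads with their parents, and 7 of the 36 tested members had at least 20% of their words in other transcripts: Hnrnpf, Srsf4, Hnrnpa1, Hnrnpa3, Hnrnpab, Hnrnph2 and Hnrnpk.

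Of the features that the choice by symbol did not use, the annotated transcripts were compared with those of other genes by their counts, with no test. In GENCODE M21, 23 of 36 members, 63.9%, had a transcript marked for nonsense-mediated decay, against 27.6% of 13824 tested coding genes, and 27, 75%, had a retained-intron transcript, against 57.2%. Both kinds were found in 21 members, 58.3%, against 21.7%. Members also had more annotated transcripts, a median of 7.5 against 5, a longer exonic length, 5750 against 4470 bases, and a lower GC content, 42.9% against 49.1%. These annotated forms were found in 7 and 8 of the 12 members that rose with age, 3 and 4 of the 6 that fell, and 13 and 15 of the 18 without a call. Some members are neighbours on a chromosome. Hnrnpd and Hnrnpdl lie 54639 bases apart, with log2 age differences of 0.08 and 0.10, and Hnrnpll and Srsf7 lie 137746 bases apart, with 0.30 and 0.02.

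The other splicing genes, 164 from fixed lists of the spliceosome and its helpers, were called with age at 20% to 42.9% per list, at the background of 39.4%. Of 35 snRNP and tri-snRNP genes 8 were higher and 6 lower, of 14 SF3 and branch point factors 5 and 1, of 24 Prp19 complex and catalytic step factors 9 and 1, of 27 SR-related proteins and SR kinases 6 and 5, of 36 other RNA-binding regulators 8 and 4, of 18 exon junction and TREX genes 4 and 0, and of 10 nonsense-mediated decay genes 1 and 1. The widest age difference named was that of Rsrp1, an arginine and serine-rich protein gene, which fell from 476 to 325 CPM (log2 difference -0.55 ± 0.04, adjusted p = 7.98e-10). Its list mate Srrm2, a scaffold of nuclear speckles, fell from 145 to 118 CPM (-0.29 ± 0.05, adjusted p = 0.000232). Genes that rose were Usp39 of the tri-snRNP, from 81.2 to 111 CPM (0.45 ± 0.05, adjusted p = 3.62e-07), Sf3b4, from 81.3 to 111 (0.44 ± 0.06, adjusted p = 4.25e-06), and Eif4a3, the helicase that anchors the exon junction complex, from 225 to 282 (0.33 ± 0.04, adjusted p = 3.78e-06).

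Other named genes of these lists also changed with age. The export helicase Ddx39b rose from 219 to 271 CPM (0.30 ± 0.05, adjusted p = 2.73e-05), Crnkl1 from 58.3 to 75.4 (0.37 ± 0.06, adjusted p = 5.6e-05), Plrg1 from 48.6 to 60 (0.30 ± 0.05, adjusted p = 0.000127), Elavl1 from 164 to 195 (0.25 ± 0.04, adjusted p = 0.000119), Puf60 from 143 to 172 (0.26 ± 0.05, adjusted p = 0.000174), Txnl4a from 301 to 349 (0.22 ± 0.04, adjusted p = 0.000654) and Smg9 from 21.3 to 25.5 (0.26 ± 0.08, adjusted p = 0.0151). Tial1 fell from 59.3 to 49.6 CPM (-0.26 ± 0.06, adjusted p = 0.00166) and Upf2 from 25.2 to 22 (-0.19 ± 0.08, adjusted p = 0.0473).

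With treatment, 0.766% of all genes were higher and 0.429% lower. At a mean of at least 100 CPM, 81 of 1761 genes were higher and 17 lower. Of the 35 snRNP genes 4 were higher and none was lower. Named after their values were seen, these were the Sm and Lsm proteins Snrpg, from 266 to 364 CPM (0.45 ± 0.08, adjusted p = 0.00516), Lsm5, from 89.3 to 116 (0.38 ± 0.07, adjusted p = 0.00516), Snrpe, from 288 to 354 (0.30 ± 0.06, adjusted p = 0.00782), and Lsm6, from 253 to 295 (0.22 ± 0.05, adjusted p = 0.0271). Ythdc1, an RNA-binding regulator named in the same way, fell from 69.7 to 56.7 CPM (-0.30 ± 0.06, adjusted p = 0.0164). The other lists had no call with treatment in edgeR. At an unadjusted p under 0.05 they held 0 of 14 SF3, 0 of 24 Prp19, 3 of 27 SR-related, 1 of 18 exon junction and TREX and 0 of 10 decay genes. The snRNP list held 11 of 35 at that level and the other RNA-binding regulators 3 of 36, against 8.83% of all genes.

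**Figure D4:**
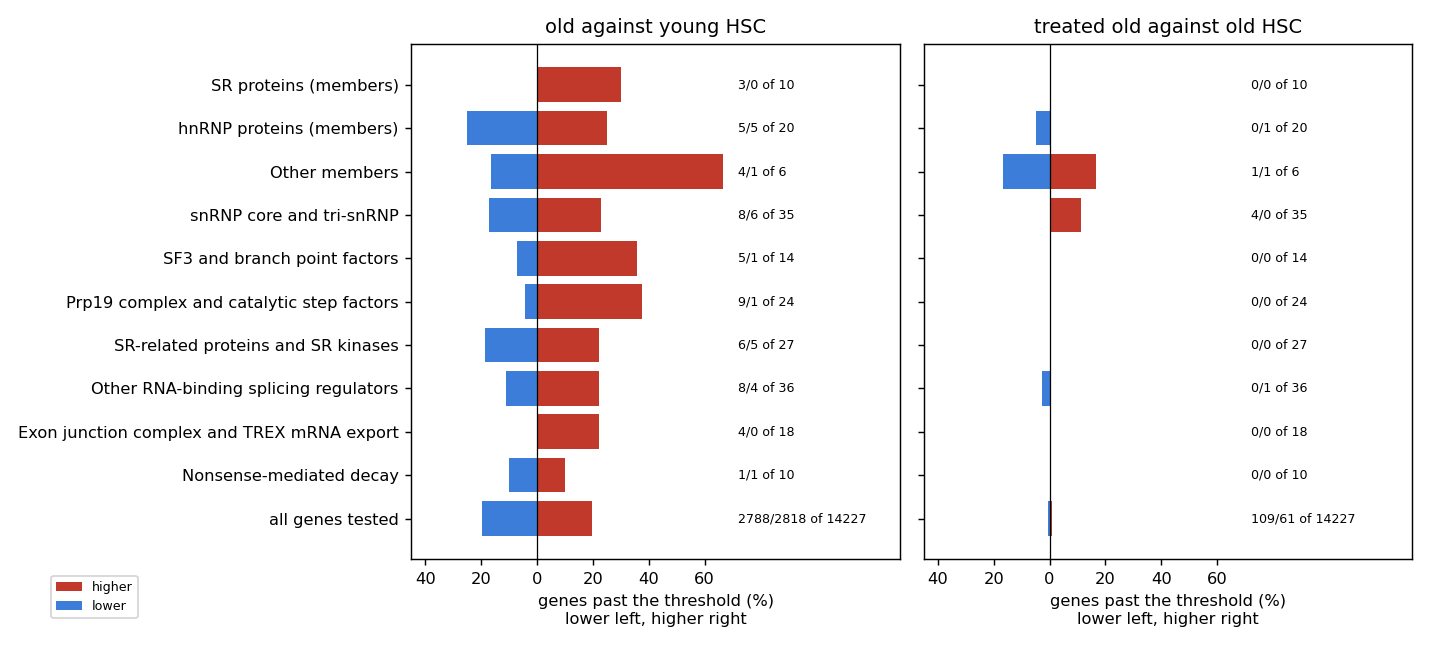
Percent of tested genes past the threshold in each family and list, higher to the right and lower to the left, for both comparisons; the numbers give genes higher and lower of those tested. With treatment the bars are short apart from the partners, at 1 and 1 of 6, and the snRNP genes, at 4 and 0 of 35.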

How the data were processed

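Low-input RNA sequencing was done on polyadenylated RNA of 1500 sorted cells per library with 12 cycles of PCR, in 3 groups of 3 libraries. Per the labels' protocols, cDNA was made from purified RNA and sequenced as paired ends. The deposited table holds an estimated count per gene and library, that is, an expected count; 56.04% of the non-zero values were whole to within 1e-09, and no source used here names the step that gave the others. The submitters' processing notes list the build mm10, edgeR 3.24.3 and HTSeq 0.10.0, and also STAR 2.6.1d and Trim Galore 0.6.2, without their roles.

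Counts were rounded and tested with edgeR 4.0.16 in R 4.3.3: TMM scaling, the default filter, 1 quasi-likelihood fit over the 9 libraries with no covariate beside group, and Benjamini-Hochberg adjustment over 14227 genes at 0.05. Levels are CPM. Coordinates, lengths and transcript types are from GENCODE M21 (GRCm38), which held 23289 of 23317 rows. Promoters are from RefSeq. Python 3.11.15 was used for the rest. Other settings were RLE factors, library totals alone, DESeq2 1.42.0, other filters, the 2 groups alone, a replicate block, leaving out each library, a fold threshold of 1.2, thinning to equal depth, removal of GC and length trends, and leaving out genes with at least 20% of their 31-base words in other genes.

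The members, lists and rules were chosen with earlier results of these data known. Values in every library are given for the 6 partners, up to 6 Srsf and 6 Hnrnp genes of smallest p among those past the threshold with age, the genes called with treatment and the 3 highest and 3 lowest per length, and up to 2 genes of smallest p of each other list are named. Some genes of the lists are counted but not reported here by name.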

Additional observations from a re-analysis of the deposited data

How the results depend on the processing

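Of the 18 calls with age, 9 held under every setting tried other than the fold threshold of 1.2 (Alyref, Hnrnpa0, Hnrnpa2b1, Hnrnpab, Hnrnpll, Hnrnpm, Srsf6, Srsf9 and Tra2a). So did 5 of the 16 calls for treated old against young HSC, and the treatment calls of Alyref and of Hnrnpab, which was not in the fit without genes of shared words. Against the fold threshold of 1.2, 3 members were called with age (3 higher, 0 lower; 2245 genes in all), 0 with treatment (0 higher, 0 lower; 15 genes) and 2 for treated old against young HSC (1 higher, 1 lower; 2187 genes). With library totals alone, 7 members were higher and 11 lower with age, and 4 higher and 11 lower for treated old against young HSC. The median of all genes then stood at -0.116 and -0.12 in place of -0.0318 and -0.0185, and 32.2% of the age calls were rises in place of 49.7%. With GC and length trends removed, 28 members were called with age (25 higher, 3 lower), at 48.9% of all genes, and 28 for treated old against young HSC (25 higher), and the treatment gave 282 genes. In that setting the split of age calls was 68% higher, and 60.4% with DESeq2. Signs then differed for 5 members with age, 4 with treatment and 9 for treated old against young HSC. Those called in at least 1 of the 2 settings were Arglu1 (0.04487), Clk1 (0.2545), Hnrnpa3 (0.0896) and Hnrnpr (0.3761) with age, and Clk1 (0.269), Hnrnpa3 (0.07859), Hnrnpr (0.4376), Hnrnpu (0.2881) and Srsf7 (0.1243) in treated old against young HSC; the cause was not tested.

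With treatment, no filter gave 333 genes, the 2 groups alone 260, and the fit without genes of shared words 1 member lower. The stricter filter gave 7 members higher and 7 lower for treated old against young HSC. Leaving out 1 library at a time gave 48 to 286 genes and 0 to 1 members higher with treatment, 3 to 7 members lower with age, and 3 to 8 lower for treated old against young HSC. The treatment count of genes moved from 170 to 91 without old replicate 1, 77 without old replicate 2, 69 without treated replicate 1, 48 without treated replicate 2 and 286 without young replicate 1. The lowest count of members lower with age came without young replicate 3, and the highest in treated old against young HSC without young replicate 1.

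Correlations of deviations between young and old libraries of the same replicate number were 0.0628, 0.132 and 0.0636. For differing numbers of these groups they ran from -0.0964 to 0.0351. Between treated libraries and the others they ran from -0.0808 to -0.0205 for the same number and from -0.0515 to 0.0723 for differing numbers. The main fit did not take the numbers as pairs, and whether they pair young and old libraries was not tested. With the replicate block, 13 members were higher and 6 lower with age, Srsf1 being added at a log2 difference of 0.39 (adjusted p = 0.000351), and for treated old against young HSC Srsf1 gained a call (0.21, adjusted p = 0.0352) and Tra2b lost its own.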
